A study of Schizosaccharomyces pombe with 21 samples.

Results

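The step from 36 h to 48 h of phosphate starvation was examined in *ecl123*Δ fission yeast (*Schizosaccharomyces pombe*; genotype h- *ecl1*∆::hygMX *ecl2*∆::natMX *ecl3*∆::kanMX, lab strain ASY136). The 48 h group (3 libraries) and the 36 h group (3 libraries) were both taken from cells kept in ePMGT(-PO4), a defined medium that contains glutamate and thiamine but no phosphate. The series holds 21 libraries of poly(A)+ RNA, with 3 biological replicates at each of 7 time points, and its 0 h samples were log phase cells in YES, a rich yeast extract medium. Each group carries the triple deletion and the samples include no wild type, so differences between the times cannot be set against cells that have the Ecl proteins. Members were all genes with a mean normalised count of at least 100 at 48 h or at 36 h: 5814 of the 6988 genes listed. Just inside that minimum lay SPNCRNA.1593 (100.1 at 48 h and 70.29 at 36 h) and the retrotransposon gene *Tf2-2* (100.2 and 74.21), and just outside lay SPNCRNA.1590 (99.5 and 73.8) and SPNCRNA.1578 (99.43 and 93.26).

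When inorganic phosphate runs out, fission yeast cells induce the *PHO* regulon: a secreted acid phosphatase (Pho1), a phosphate transporter (Pho84) and a glycerophosphodiester transporter (Tgp1), all driven by the transcription factor Pho7 and each preceded by a lncRNA gene whose transcription interferes with the mRNA promoter. Over a longer time the cells stop dividing and become quiescent, with low output of ribosomes. The Ecl proteins are small proteins, made by paralogous genes, that extend the lifespan of non-dividing cells.

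The deposited values are the authors' mean over the 3 libraries of a time point, so a value given for a time point is that mean and carries no error of its own. Differences are log2((48 h mean + 1)/(36 h mean + 1)), a description with no test, and "past 2-fold" or "past 1.5-fold" refers to that ratio. Where an interval is given, it is the 95% exact (Clopper-Pearson) interval of the ratio of the means from the estimated reads behind them, and it covers counting error only. For 924 members with low means, the values of the single libraries could be rebuilt from the means. They are named A, B and C within each time point in order of library size, and these letters pair nothing across time points. The libraries held on average 21080000 counted reads at 48 h and 22270000 at 36 h. Over the rebuilt genes the median SD between libraries was 0.13 at 48 h and 0.16 at 36 h on the log2 scale. With 3 libraries against 3, an exact two-sided permutation test cannot go below p = 0.10, so overlap of the libraries is given instead, as a description. For a member named for its ratio, that ratio largely fixes the overlap, so a lack of overlap adds no separate evidence. Of the rebuilt members, all 10 past 2-fold higher and all 10 past 1.5-fold lower had no overlap.

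The deleted genes were looked at first. *ecl3* was listed at 0, 0 and 1.105 normalised counts in the 48 h libraries, against 0.9584, 6.56 and 3.499 in the 36 h libraries, far under the membership minimum. *ecl1* had a mean of 1472 at 48 h and 1717 at 36 h, and *ecl2* had 1934 at 48 h and 2575 at 36 h. Per the study's methods the markers replaced the open reading frames, while counts were taken over whole exons. In the RefSeq annotation of ASM294v3 the exon of *ecl1* spans 820 bases, of which 577 lie outside the coding sequence, that of *ecl2* spans 1509 bases with 1254 outside, and that of *ecl3* 488 bases with 218 outside. A count over an exon does not say where on it the reads lie, so the level of *ecl3* is near 0 as the label has it, and the reads on *ecl1* and *ecl2* neither bear out nor go against the loss of their reading frames.

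The step was small for most genes. Past 2-fold, 15 members were higher at 48 h (0.258% of the 5814) and 4 were lower (0.0688%), which is 0.327% either way. Some of the 15 passed the minimum only through their 48 h mean. With a mean of at least 100 at both times, 9 were higher and 4 lower, so the membership rule adds to this imbalance. Past 1.5-fold, 199 were higher (3.42%) and 71 were lower (1.22%), so that 73.7% of these calls were higher. That share was 87.0% when ratios were centred on the median protein-coding member and 87.4% when they were scaled to the summed means, since both scalings shift every ratio up by 0.07. The median log2 ratio over all members was -0.02 and 46.3% lay above 0, against 56.3% after centring. The other steps of the course between times in starvation medium held more members past 2-fold: 9.36% between 4 and 8 h, 0.907% between 8 and 12 h, 2.85% between 12 and 24 h and 1.49% between 24 and 36 h. These steps share libraries with their neighbours, differ in length, and were not compared by a test.

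The classes of RNA differed in where their members lay. The 4895 protein-coding members had a median log2 ratio of -0.07, with 65 past 1.5-fold higher and 68 past it lower, a split that became 92 and 40 after centring and 94 and 39 when scaled to the summed means. The 855 members annotated as lncRNAs had a median of 0.32, and 87.72% of them lay above 0. Of these lncRNAs, 121 (14.2%) were past 1.5-fold higher and 3 were past it lower, against 3.42% and 1.22% over all members. The cytosolic ribosomal protein genes had high counts and lay mostly above 0.

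**Figure D1:**
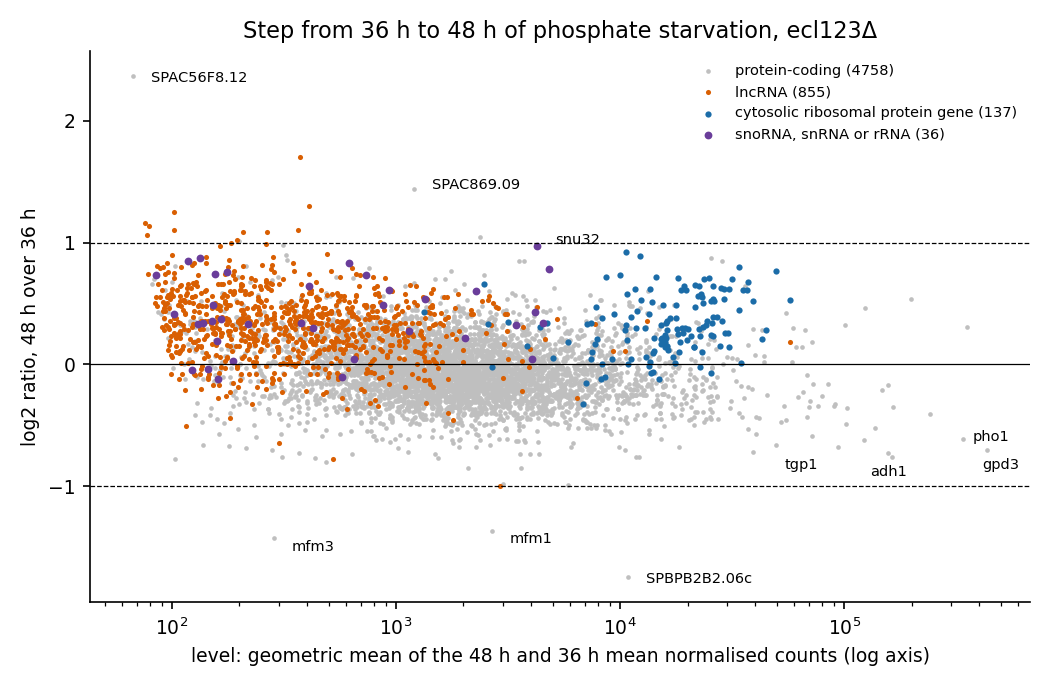
Log2 ratio of 48 h over 36 h (vertical axis) against level, the geometric mean of the 48 h and 36 h mean normalised counts (log axis), for protein-coding genes, lncRNAs, cytosolic ribosomal protein genes and the snoRNAs, snRNAs and rRNAs; dashed lines mark 2-fold. The lncRNAs spread around a median of 0.32 at low levels, the 137 ribosomal protein genes lie mostly above 0 at high levels, and SPBPB2B2.06c (-1.75) and the M-factor genes *mfm1* and *mfm3* are the lowest points.

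The 3 genes of the *PHO* regulon were lower at 48 h, with a median log2 ratio of -0.61. *pho1*, the secreted acid phosphatase, had a mean of 274600 at 48 h and 419100 at 36 h, a log2 ratio of -0.61 (ratio 0.655, interval 0.654 to 0.657). *tgp1*, the glycerophosphodiester transporter, had 39350 at 48 h and 62300 at 36 h (-0.66). *pho84*, the phosphate transporter, moved least, with 136600 at 48 h and 158300 at 36 h (-0.21). The 24 h means were 422800 (*pho1*), 54860 (*tgp1*) and 134800 (*pho84*), so at 48 h *pho84* alone was not below its 24 h mean. Their means had been 39180 (*pho1*), 322.9 (*tgp1*) and 22910 (*pho84*) at 0 h, so all 3 were still well above the 0 h mean at 48 h. *pho7*, which encodes the activator, had 1033 at 48 h and 1560 at 36 h (-0.59).

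The lncRNAs upstream of these genes had ratios above 0 at this step. *prt2*, upstream of *pho84*, had a mean of 1176 at 48 h and 851.6 at 36 h (0.46). *nc-tgp1* had 1816 at 48 h and 1548 at 36 h (0.23). *nc-pho1* (*prt*) had 236.5, 210.6 and 309.3 in the 48 h libraries, against 210.8, 174.9 and 204.1 in the 36 h libraries (0.36). The 24 h means had been 902.7 (*prt2*), 2178 (*nc-tgp1*) and 284.9 (*nc-pho1*), so at 48 h only *prt2* was above its 24 h mean. The *nc-pho1* libraries of the 2 times overlapped, and the ratios of the 3 lncRNAs lay within the quartiles of all lncRNA members (0.15 to 0.48). Each of these lncRNAs overlaps a coding gene on its own strand in the annotation, so reads shared between them are possible.

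Other genes that recover phosphate from outside or inside the cell were mixed. SPBPB2B2.06c, a predicted extracellular 5′-nucleotidase, had the lowest ratio of all members: a mean of 5928 at 48 h and 19890 at 36 h, a log2 ratio of -1.75 (ratio 0.298, interval 0.293 to 0.303). Its mean was 122.6 at 0 h, 70120 at 12 h and 42190 at 24 h, so its level had been going down since 12 h. SPAC1039.02, a second predicted 5′-nucleotidase, had a ratio of -0.72. Over the whole list of 34 phosphate mobilisation genes the median was -0.14, or -0.08 set against coding genes of like length. Past 1.5-fold, 4 (11.8%) were lower and 0 higher, against 1.22% and 3.42% over all members, and 25 of the 34 lay below 0, as did 2998 of the 4895 protein-coding members. Among 9 genes of inositol pyrophosphate and polyphosphate metabolism the median was -0.08, and *kcs1*, an inositol polyphosphate kinase, had 1900 at 48 h and 2929 at 36 h (-0.62).

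A list of Pho7-dependent genes, which the study drew from libraries of *pho7*Δ cells and not from these samples, had a median of -0.50 over 19 members. Of these, 9 (47.4%) were past 1.5-fold lower and 0 were past it higher, against 1.22% and 3.42% over all members. The 9 were SPBPB2B2.06c, *mfm1*, SPBPB2B2.05, *str3*, *gpd3*, SPAC27D7.11c, *tgp1*, *rgs1* and *pho1*. SPBPB2B2.05, a class I glutamine amidotransferase family protein, had 4158 at 48 h and 8269 at 36 h (-0.99). At the other end SPAC26F1.11 (0.15), the peroxiredoxin gene *pmp20* (0.14) and the calcium pump gene *cta3* (0.13) lay slightly above 0. The list shares most of its members with other lists, and the 5 members in no other list had a median of -0.04.

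The mating pheromone genes held 2 of the 4 members past 2-fold lower. h- cells secrete M-factor, a lipidated peptide made from 3 precursor genes. *mfm3* had 151.9, 177.6 and 187.8 normalised counts in the 48 h libraries, against 560.6, 417.6 and 423.3 in the 36 h libraries. The libraries did not overlap, which a ratio of this size largely fixes. The log2 ratio of the means was -1.43 (difference of library log2 means -1.42 ± 0.17, SE). *mfm1* had a mean of 1667 at 48 h and 4300 at 36 h (-1.37), whereas *mfm2* had 5010 at 48 h and 5853 at 36 h (-0.22). The precursor genes encode the same mature peptide and their counts may share reads. *ste6*, a Ras activator in the pheromone pathway, had 379.0 at 48 h and 571.6 at 36 h (-0.59), and *rgs1*, a regulator of pheromone signalling, had 1440 at 48 h and 2207 at 36 h (-0.62). *ste11*, the master regulator of sexual differentiation, had 2786 at 48 h and 2576 at 36 h (0.11). Over 29 mating genes the median was -0.25, or -0.13 set against coding genes of like length, with 5 past 1.5-fold lower (17.2%) and 0 past it higher, against 1.22% and 3.42% over all members.

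The genes of glycolysis and alcoholic fermentation were mostly lower at 48 h. The list of 19 had a median of -0.43, with 17 below 0, where 2998 of the 4895 protein-coding members also lay. Past 1.5-fold, 5 (26.3%) were lower and 1 (5.26%) was higher, against 1.22% and 3.42% over all members. *gpd3*, glyceraldehyde-3-phosphate dehydrogenase, had a mean of 340600 at 48 h and 554800 at 36 h (-0.70), and its paralogue *tdh1* had 74250 at 48 h and 118600 at 36 h (-0.68). *adh1*, alcohol dehydrogenase, had 126100 at 48 h and 213100 at 36 h (-0.76). *eno101*, enolase, had 121800 at 48 h and 202300 at 36 h (-0.73). *pdc101*, pyruvate decarboxylase, had 99190 at 48 h and 152200 at 36 h (-0.62), but its paralogues *pdc201* (73930 at 48 h and 61030 at 36 h, 0.28) and *pdc202* (996.4 and 574.1, 0.79) were higher. Counts of these paralogues may share reads. Together the listed glycolytic genes made up 7.39% of the summed means at 48 h and 10.2% at 36 h.

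Of the 19 TCA cycle genes, 0 lay above 0, against 38.75% of all protein-coding members. The median was -0.33 and the range -0.53 to -0.18. In either direction 0 reached 1.5-fold, which few protein-coding members did (1.33% higher and 1.39% lower). *aco1*, aconitase, had the lowest ratio, with 31070 at 48 h and 44850 at 36 h (-0.53). *fum1*, fumarase, had 8993 at 48 h and 12380 at 36 h (-0.46), and *pyr1*, pyruvate carboxylase, had 21880 at 48 h and 29850 at 36 h (-0.45). *mae2*, the malic enzyme, had 62000 at 48 h and 79000 at 36 h (-0.35). Set against the median of all coding members of like coding length, the list's own genes included, the list medians were -0.24 for the TCA cycle, -0.35 for glycolysis, -0.49 for the *PHO* regulon and -0.49 for the Pho7-dependent genes.

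The lowest protein-coding members also held genes of other functions. *fip1*, the iron permease, had 1565 at 48 h and 2827 at 36 h (-0.85), while its partner oxidase *fio1* had 1397 at 48 h and 1512 at 36 h (-0.11). *str3*, which the study names a heme transporter, had 876.0 at 48 h and 1447 at 36 h (-0.72). The copper transporter gene *ctr4* had 1175 and 1784 (-0.60). The 24 h means were 4189 (*fip1*), 800.9 (*str3*) and 1218 (*ctr4*). *fip1*, *str3* and *ctr4* were the members of the 23 iron and copper genes past 1.5-fold lower (3 of 23, against 1.22% over all members). The list median was -0.14, or -0.12 set against length. *nrg1*, an amino acid permease, had 2128 at 48 h and 4201 at 36 h (-0.98). *put4*, a proline transporter, had 368.0 at 48 h and 639.4 at 36 h (-0.80) and was the 1 of 14 members of the amino acid permease list past 1.5-fold lower (list median -0.22; *nrg1* was not on it). *mfs1*, a transporter of the MFS family, had 9063 at 48 h and 15330 at 36 h (-0.76). Other low members were *chk1*, the DNA damage checkpoint kinase (1183 at 48 h and 2013 at 36 h, -0.77), and *top3*, DNA topoisomerase III (331.5 and 565.9, -0.77). *rit1*, which modifies the initiator tRNA, had 247.7, 233.8 and 235.3 in the 48 h libraries, against 400.6, 498.5 and 314.9 in the 36 h libraries, with no overlap.

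The cytosolic ribosomal protein genes were mostly higher at 48 h. The 80 large-subunit genes had a median of 0.31, with 14 past 1.5-fold higher (17.5%) and 0 past it lower, and the 57 small-subunit genes had a median of 0.30, with 12 (21.1%) and 0, against 3.42% and 1.22% over all members. They were 26 of the 65 protein-coding members past 1.5-fold higher, and 2.8% of all protein-coding members. Their share of the summed means was 20.9% at 0 h, 4.77% at 4 h, 4.37% at 8 h, 6.53% at 12 h, 10.7% at 24 h, 9.37% at 36 h and 12.7% at 48 h. For 107 of the 137, the 48 h mean was the highest of the 6 starved times, as it was for 1340 of all 5814 members. Yet 14 of the 137 exceeded their 0 h mean at 48 h, against 2861 of all 5814 members.

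The highest ratios were those of small proteins. *rpl3802* (eL38) had a mean of 14630 at 48 h and 7749 at 36 h, a log2 ratio of 0.92 (ratio 1.89, interval 1.86 to 1.92), and its paralogue *rpl3801* had 11070 at 48 h and 6710 at 36 h (0.72). *rpl4102* (eL41) had 16680 at 48 h and 8993 at 36 h (0.89). *rpl29* had 44720 at 48 h and 25730 at 36 h (0.80), and *rps2502* (eS25) had 64960 at 48 h and 38180 at 36 h (0.77). At the other end *rpl1601* had 6087 at 48 h and 7631 at 36 h (-0.33), *rps1002* had 6697 and 7446 (-0.15) and *rpl401* had 14240 and 15520 (-0.12). Many of these genes are near-identical duplicates whose reads the counting could have split unevenly, so single values within a pair are uncertain.

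Coding length moved with the ratio across all protein-coding members. Outside the ribosomal protein genes, the median ratio was 0.24 for coding lengths to 300 bases, 0.17 for those up to 450, 0.09 up to 600, 0.03 up to 900, -0.08 up to 1500, -0.18 up to 3000 and -0.19 above that. Within the same length classes the ribosomal protein genes had medians of 0.64, 0.36, 0.27, 0.14 and, for 4 genes of 900 to 1500 bases, -0.01. Set against the median of all coding members of their length class, these genes included, the large-subunit median was 0.17 and the small-subunit median 0.20. In the step between 24 h and 36 h, which shares the 36 h libraries, the median of the other coding genes was -0.17 in the shortest class and 0.16 in the longest. The part of coding length in the list values was not tested beyond this adjustment.

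**Figure D2:**
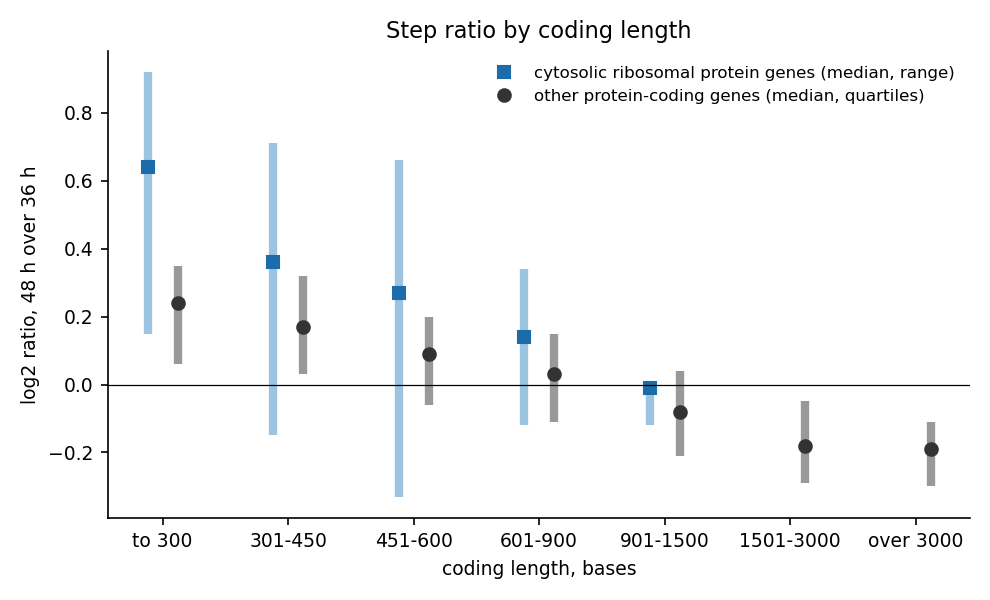
Log2 ratio of 48 h over 36 h (vertical axis) by class of coding length in bases (horizontal axis). Squares and light bars are the median and range of cytosolic ribosomal protein genes, and circles and grey bars the median and quartiles of the other protein-coding members, which go down from 0.24 in the shortest class to -0.19 in the longest; ribosomal protein medians lie above them in each class that holds any.

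Other parts of the machinery that makes ribosomes moved less. The 97 ribosome assembly genes had a median of 0.06, with 1 past 1.5-fold higher (*rrp1402*, 0.70) and 0 past it lower. *nop10* (0.57), *snu13* (0.48) and *nhp2* (0.45), which encode small proteins of snoRNPs, followed it. The 20 RNA polymerase I genes had a median of 0.10, the 21 RNA polymerase III genes -0.06, the 75 mitochondrial ribosomal protein genes 0.10, the 35 aminoacyl tRNA synthetase genes -0.09 and the 59 translation factor genes -0.08. Set against length, the medians were 0.11 for ribosome assembly, 0.15 for RNA polymerase I, 0.02 for RNA polymerase III, 0.01 for the mitochondrial ribosome, 0.06 for the synthetases and 0.05 for the translation factors, so those of RNA polymerase III, the synthetases and the translation factors changed sign. *maf1*, the repressor of RNA polymerase III, had 1299 at 48 h and 1478 at 36 h (-0.19), and the TFIIIB genes *brf1* (2557 and 2562, 0.00) and *bdp1* (1709 and 1731, -0.02) had counting intervals of the ratio that included 1.

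**Figure D3:**
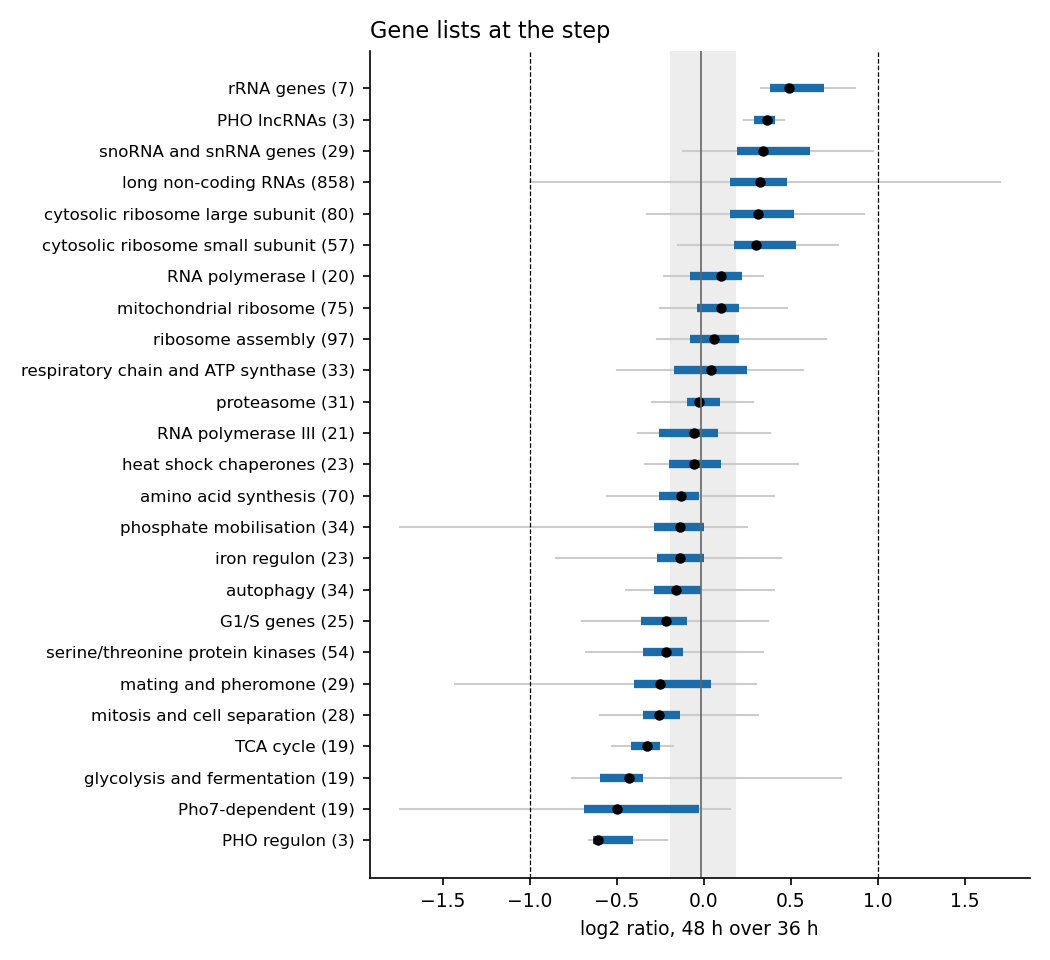
Log2 ratio of 48 h over 36 h (horizontal axis) for 25 gene lists, with the number of members in brackets. Black points are medians, blue bars quartiles, grey lines the range; the grey band and line are the quartiles and median of all 5814 members and dashed lines mark 2-fold. The list medians run from 0.49 for the rRNA genes down to -0.61 for the *PHO* regulon.

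Of the 855 lncRNA members, 11 were past 2-fold higher and 1 was past it lower, against 15 and 4 of all 5814 members. SPNCRNA.1120, SPNCRNA.1223, SPNCRNA.1460, SPNCRNA.1181 and SPNCRNA.879 were members only through their 48 h mean, with 36 h means between 50.24 and 69.15. SPNCRNA.1299 had the highest ratio, with a mean of 674.9 at 48 h and 206.8 at 36 h, a log2 ratio of 1.70 (ratio 3.25, interval 3.01 to 3.64). Its 36 h libraries held 185.9, 131.2 and 303.2, and its mean at 24 h was 646.9. SPNCRNA.918 had 639.7 at 48 h and 259.7 at 36 h (1.30), with 440.7 at 24 h. SPNCRNA.879 had 197.8, 143.4 and 133.6 in the 48 h libraries, against 58.46, 54.66 and 85.13 in the 36 h libraries (1.25), without overlap. SPNCRNA.388 had a mean of 2062 at 48 h and 4133 at 36 h (-1.0), after 648.8 at 0 h and 2979 at 24 h, so that its highest mean of the course was at 36 h.

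The lncRNAs lay above 0 with and without an overlapping coding gene. The 613 lncRNAs antisense to a coding gene had a median of 0.29, the 40 that overlap one only on the same strand 0.33, and the 202 without overlap 0.40. SPNCRNA.1181, for example, lies antisense to *rgf3* and had a ratio of 1.16, while *rgf3* had 0.12. SPNCRNA.879 lies antisense to *bgs2*, a glucan synthase subunit gene of spores, which had -0.06. How the counting treated strand was not stated in the sources read, so an antisense pair cannot be assumed to be separate. Of the 514 rebuilt lncRNAs, all 48 h libraries lay above all 36 h libraries in 251 (48.8%) and below them in 10, against 35.8% above and 7.03% below over all 924 rebuilt members. Of the 376 rebuilt protein-coding members, 66 lay above and 54 below. The median of the rebuilt lncRNAs was between 0.29 and 0.36 when any 1 library was left out.

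Classes of RNA that are mostly not polyadenylated were also higher in these poly(A)+ libraries at 48 h. The 29 snoRNA and snRNA members had a median of 0.34, with 9 past 1.5-fold higher (31.0%, against 3.42% over all members) and 0 past it lower. *snu32*, one of the copies of the U3 snoRNA that acts in early rRNA processing, had a mean of 5977 at 48 h and 3053 at 36 h (0.97), and *snu3*, the other copy, had 6289 at 48 h and 3672 at 36 h (0.78). U3 copies may share reads. *snu1*, the U1 snRNA of the spliceosome, had 826.5 at 48 h and 463.6 at 36 h (0.83), while *snu4* (U4) had 120.0 at 48 h and 124.6 at 36 h (-0.05). The 7 rRNA members lay between 0.33 and 0.87. The snoRNA and snRNA genes together took 0.206% of the summed means at 48 h, 0.143% at 36 h and 0.207% at 24 h, and all annotated lncRNAs took 2.84% at 48 h, 2.27% at 36 h and 2.73% at 24 h. These RNAs moved with the lncRNAs and with short coding genes, and the part of poly(A) selection in any of these values was not tested.

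Protein-coding members with the highest ratios were mostly uncharacterised. SPAC56F8.12 had 217.1, 134.6 and 111.6 normalised counts in the 48 h libraries, against 35.46, 9.84 and 41.98 in the 36 h libraries. The libraries did not overlap and the log2 ratio was 2.37, the highest of all members, but the 36 h library B stood well under the other 36 h libraries, and the mean at 24 h was 171.7. Its 36 h mean was 29.09, so SPAC56F8.12 was a member only through its 48 h mean. SPAC869.09, of the Con-6 family, had a mean of 1990 at 48 h and 732.1 at 36 h (1.44), after 8.733 at 0 h. Another Con-6 family gene, SPAC11D3.01c, had 34450 at 48 h and 18900 at 36 h (0.87). *min8* had 3409 at 48 h and 1648 at 36 h (1.05). SPBC16E9.20 had 337.4, 210.6 and 302.6 in the 48 h libraries, against 104.5, 117.0 and 200.6 in the 36 h libraries (1.01), with no overlap. *mug108*, named for a gene upregulated in meiosis, had 4977 at 48 h and 2763 at 36 h (0.85), and *meu13*, a homologous-pairing protein of meiosis, had 295.6, 279.0 and 280.5 in the 48 h libraries, against 185.0, 135.6 and 164.4 in the 36 h libraries (0.81). *hry1*, of the HHE domain family, had 293.6, 367.3 and 659.4 at 48 h, against 325.8, 213.2 and 185.4 at 36 h, and these libraries overlapped.

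**Figure D4:**
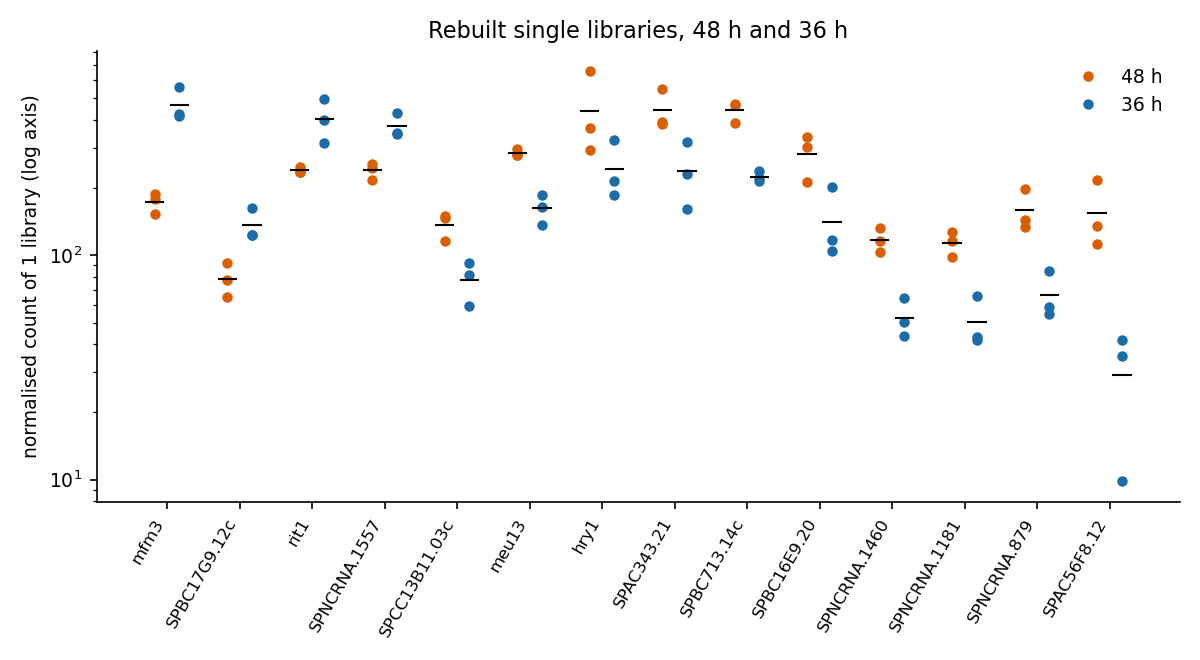
Rebuilt normalised counts of single libraries (log axis) at 48 h (left of each pair) and 36 h (right) for the members with the highest or lowest ratios whose libraries could be rebuilt; each point is 1 library and each black line the mean of 3. The members were picked for their ratio, which largely fixes the separation seen in all but *hry1*; over all 924 rebuilt members the 48 h libraries lay all above in 35.8% and all below in 7.03%.

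The time courses of the leading members fell into different shapes. SPBPB2B2.06c, *mfm3* and *mfm1* had their highest mean at 12 h or 24 h and a lower one at each later time, with *mfm3* at 1236 at 24 h, 467.2 at 36 h and 172.4 at 48 h. *gpd3* had its highest mean at 36 h (554800), and *pho1* was level between 24 h (422800) and 36 h (419100) before the lower 48 h mean. *rpl29* had 25870 at 24 h, 25730 at 36 h and 44720 at 48 h, and *snu32* had 3237 at 24 h, 3053 at 36 h and 5977 at 48 h. SPAC56F8.12 and SPNCRNA.1299 were lower at 36 h than at 24 h and at 48 h. Both neighbouring steps use the 36 h libraries, so these shapes are a description of levels.

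**Figure D5:**
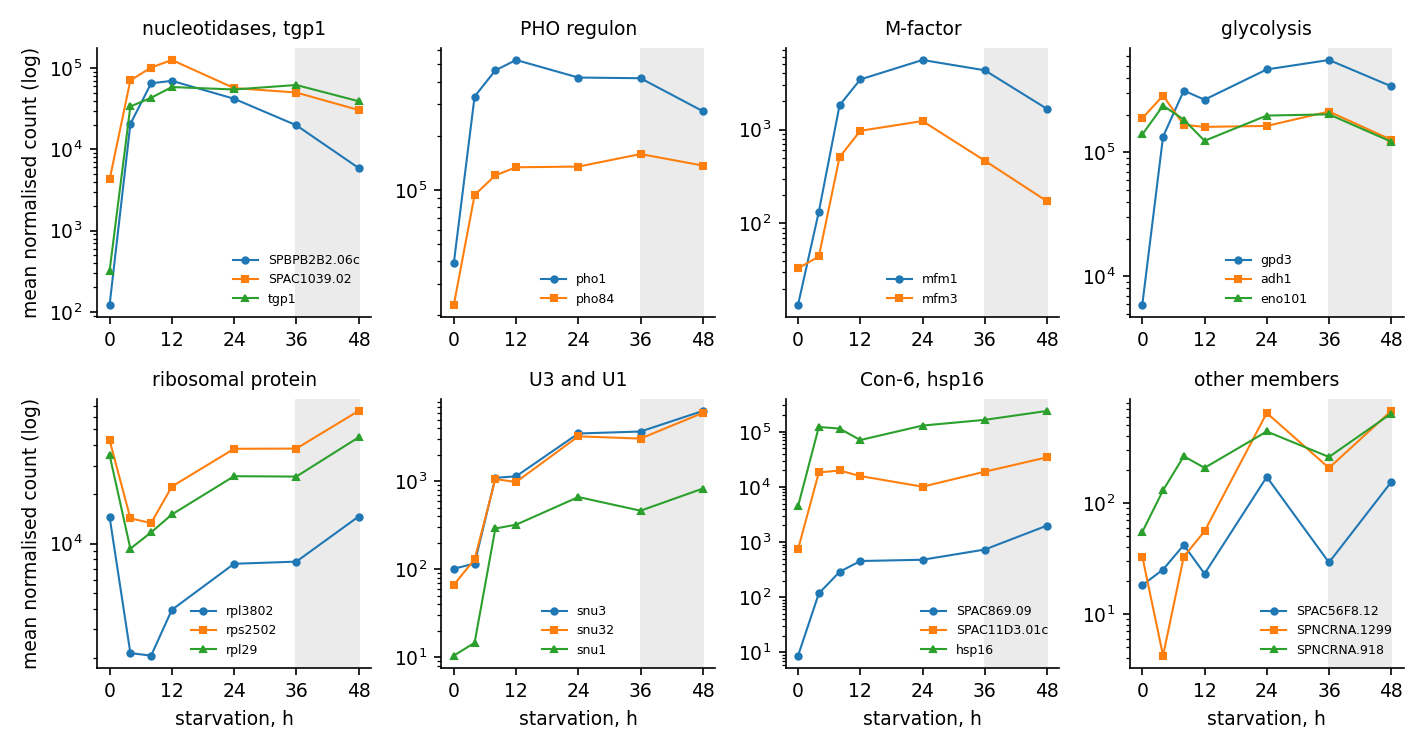
Mean normalised counts (log axis) of leading members at the 7 time points from 0 to 48 h of starvation (horizontal axis, h); the band marks the step from 36 h to 48 h and each point is the authors' mean of 3 libraries. SPBPB2B2.06c goes down from 12 h, the ribosomal protein genes shown are higher at 24 h than at 8 h and reach 44720 (*rpl29*) at 48 h, and SPAC56F8.12 and SPNCRNA.1299 have a low mean at 36 h.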

How the data were processed

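RNA was extracted with hot acid phenol and stranded poly(A)+ libraries were sequenced in paired-end mode on a NovaSeq instrument, per the labels. The submitters' processing notes and the methods of the study name HISAT2 2.1.0 for mapping to ASM294v2, SAMtools, HTSeq 0.10.0 for counts over exons of the PomBase annotation, and DESeq2 for normalisation. The authors deposited, for each time point, the mean normalised count (a signal: counts divided by size factors, averaged over 3 libraries) and their own comparisons with 0 h (log2 fold changes, standard errors, statistics and p-values), which were not used.

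Log2 ratios were formed from the means with a pseudocount of 1 for genes with a mean of at least 100 at 48 h or 36 h. Genes were called by fold alone, since the means allow no test per gene. The steps between low means gave the size factors (0.905 to 0.981 at 48 h and 0.858 to 1.04 at 36 h) and hence the read totals. The whole reads of the 3 libraries were rebuilt where exactly 1 set of counts gave the deposited mean to its 10 digits and fewer than 0.05 further sets were expected by accident. This was tested on simulated data and reached 924 members, with means under about 509, so library values lean towards low genes.

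Names, products, classes and overlaps came from the RefSeq annotation of ASM294v3 (6836 identifiers by locus tag, 12 by synonym, 140 unmatched), used for no coordinate. Genes were named by a rule: the 15 protein-coding and 6 non-coding members with the highest and with the lowest ratio, up to 4 per gene list with the largest ratio in size, the *PHO* genes and lncRNAs, the *ecl* genes, *maf1*, *brf1* and *bdp1*. Others named in the text were picked after their values were seen. Members and the 49 gene lists were chosen with earlier results of these data known, and lists were later corrected from product names, not values. The work used Python 3.11.15, numpy 2.4.6, pandas 2.3.3, scipy 1.17.1 and matplotlib 3.10.9.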

Additional observations from a re-analysis of the deposited data

How the results depend on the processing

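No paired analysis was possible because the deposited means carry no replicate numbers, and for the same reason the planned fits on single-library counts (edgeR, DESeq2, with and without a replicate block or a filter) and leave-one-out over all members were not run. Against 15 members past 2-fold higher, there were 199 at a fold of 1.5, 80 with a mean of at least 10 in either, 9 with at least 100 in both, 7 with at least 300 in either, 163 with no minimum and 4 among protein-coding genes. Against 4 lower, there were 71 at a fold of 1.5 and 31 with no minimum. Pseudocounts of 0.5 and 10 moved neither count by over 1.5 times. Centring on the median protein-coding member or scaling to the summed means gave 20 higher and 3 lower each. Moves of list medians were judged by a spread of 0.13, the median SD of single rebuilt genes between the 48 h libraries, not the spread of a list. Centring and scaling to the summed means shift every median by 0.07, so these 2 settings could not reach it. Of 139 list medians recomputed, 130 moved by less than this spread. The others were the Pho7-dependent genes at -0.04 (members in 1 list only, 5 genes), the hexose transporters (0.08) at -0.23 in 1 list only, 0.30 at a mean of at least 10, -0.18 at a mean of at least 300 and 0.26 against length, and, against length, the histones at -0.15, the large ribosomal subunit at 0.17, mitosis at -0.11 and the protein kinases at -0.08. Hexose transporters and histones thus changed sign. Of 216 step ratios of 54 named genes, 3 values moved by the spread of 0.13 or more. They were *ecl3* at -2.26 and -0.40 (pseudocounts 0.5 and 10) and SPAC56F8.12 at 2.07 (pseudocount 10). No call past 2-fold could have reversed, because a pseudocount keeps the sign of a ratio and both scalings shift every ratio by only 0.07.

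Leaving out a library was added after the data were seen, over the 924 rebuilt members. The number past 2-fold higher was 10, and ran from 6 without the 36 h library B to 21 without the 36 h library C, with 17 without the 48 h library B. The number lower was 1 and ran from 1 to 2 (without the 48 h library A). The share of rebuilt lncRNAs above 0 was between 87.5% and 89.3%. What is shown here is limited to means of 3 libraries: a member with a mean above about 509 has no value for its spread, so its ratio could rest on 1 library. The causes of these changes were not tested.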

Other observations

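Several groups outside those above showed small shifts. Of the 54 serine/threonine protein kinase genes, 51 lay below 0, where 2998 of the 4895 protein-coding members also lay, with a median of -0.22, and *psk1*, an S6 kinase family member, had a mean of 4772 at 48 h and 7636 at 36 h (-0.68). The 28 genes of mitosis and cell separation had a median of -0.26 and the 25 G1/S genes -0.22, and set against coding length both medians were -0.11. Of the G1/S genes *cdc18*, which loads the MCM helicase, had 215.1, 205.1 and 236.4 in the 48 h libraries, against 313.4, 343.3 and 410.5 in the 36 h libraries, with no overlap. The 34 autophagy genes had a median of -0.16, or -0.08 set against coding length, with *atg1*, the initiating kinase, at -0.44 and *atg12*, a ubiquitin-like protein, at 0.40. The kinase genes had a median coding length of 1705 bases, against 1158 bases over all coding members, and set against coding length their median was -0.08.

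In the 33 genes of the respiratory chain and ATP synthase (median 0.04) the values ran from -0.50 for *atp1*, the catalytic-head alpha subunit, to 0.57 for *atp19* and 0.53 for *cox8*, which encode small subunits. The 11 histone genes had a median of 0.05 and the 6 hexose transporter genes 0.08. Of 137 meiosis and sporulation genes, 7 were past 1.5-fold higher (5.11%) and 1 past it lower (0.73%). The shares were 3.42% and 1.22% over all members, and 1.33% and 1.39% over the protein-coding members, to which 135 of the 137 belong. The small chaperone gene *hsp16* had a mean of 239000 at 48 h and 164800 at 36 h (0.54), the metallothionein gene *zym1* had 145400 at 48 h and 105500 at 36 h (0.46), and *nmt1*, of thiamine synthesis, had 4985 at 48 h and 3593 at 36 h (0.47). Below 0 lay 14 of 23 heat shock chaperone genes (median -0.06), 22 of 38 stress response genes (-0.14) and 9 of 11 thiamine genes (-0.12). So did 2998 of the 4895 protein-coding members, a share near that of the chaperone and stress response lists. Set against coding length these medians were 0.05, -0.01 and 0.03. *nmt1* had been at 18.15 at 0 h and 86.64 at 12 h, and then at 1081 at 24 h.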
